A study of Homo sapiens with 6 samples.

Results

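The 39 HOX genes of the 4 human clusters (HOXA, HOXB, HOXC and HOXD) were followed through RNA sequencing of 2 lung cancer cell lines. They were taken from the 23686 gene rows of the deposited tables by symbol, as the letters HOX, a cluster letter from A to D and a number, so that antisense and other noncoding rows were left out. The 6 libraries came from HCC15 and A427, established human non-small cell lung carcinoma lines labelled wild type, with 1 library for each line and siRNA. Each line was transfected with LGR6 siRNA 2, LGR6 siRNA 4 or a control siRNA labelled Tax, and was collected at 48 h in RPMI medium with 5% serum. The target, LGR6, binds R-spondin ligands and so strengthens Wnt signals, and the study compared cells in which it was silenced with cells that kept it. Per line there were 3 libraries, and no library had a replicate of the same line and siRNA. The labels do not say that the cultures were separate, so the p-values below measure how far siRNA effects differed between these libraries and not a spread between biological replicates.

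HOX genes encode homeodomain transcription factors that give cells their position along the body axis and in the limbs. Within a cluster the genes stand in the order of their paralogue number, and low numbers (anterior genes) are generally switched on earlier and nearer the head than high numbers (posterior genes). Genes with the same number in different clusters are paralogues. HOX proteins bind DNA together with the TALE cofactors of the PBX and MEIS families, Polycomb complexes keep HOX clusters silent, and MLL complexes keep them active. In the developing lung, group 5 genes, HOXA5 among them, act in branching and airway formation.

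The stretches just upstream of 5 member starts are shown as examples of members that differed between the lines, not as those that differed most. HOXD8 and HOXD4 had no read in HCC15, and HOXD1 of the same cluster was the only HOXD gene at a high level there. HOXA11 was almost silent in A427, and HOXC4 and HOXC5 share a window. Each run is the 250 bases before the annotated start, 5′ to 3′ on the gene's strand, from RefSeq on GRCh38.p14, with CG pairs in capitals. The windows lie at chr2:176129455-176129704 (plus strand) for HOXD8, chr2:176151300-176151549 (plus strand) for HOXD4, chr2:176188418-176188667 (plus strand) for HOXD1, chr7:27185233-27185482 (minus strand) for HOXA11 and chr12:54016638-54016887 (plus strand) for HOXC4 and HOXC5. The counts themselves are on hg19, and the windows were read from another build only to show the sequence.
HOXD8: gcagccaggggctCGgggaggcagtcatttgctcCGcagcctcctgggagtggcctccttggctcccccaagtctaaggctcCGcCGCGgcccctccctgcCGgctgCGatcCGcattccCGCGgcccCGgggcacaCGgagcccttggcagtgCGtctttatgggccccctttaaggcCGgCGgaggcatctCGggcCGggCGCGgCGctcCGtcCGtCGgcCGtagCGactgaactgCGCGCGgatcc
HOXD4: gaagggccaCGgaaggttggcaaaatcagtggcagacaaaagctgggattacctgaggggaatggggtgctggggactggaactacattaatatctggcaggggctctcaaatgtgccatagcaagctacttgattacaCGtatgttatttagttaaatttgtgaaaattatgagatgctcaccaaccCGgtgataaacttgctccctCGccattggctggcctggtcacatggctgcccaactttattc
HOXD1: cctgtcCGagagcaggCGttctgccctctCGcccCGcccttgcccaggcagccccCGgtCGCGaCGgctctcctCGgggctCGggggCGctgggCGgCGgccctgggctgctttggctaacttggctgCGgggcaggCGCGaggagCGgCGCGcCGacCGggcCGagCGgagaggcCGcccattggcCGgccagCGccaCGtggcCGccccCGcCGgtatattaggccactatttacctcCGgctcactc
HOXA11: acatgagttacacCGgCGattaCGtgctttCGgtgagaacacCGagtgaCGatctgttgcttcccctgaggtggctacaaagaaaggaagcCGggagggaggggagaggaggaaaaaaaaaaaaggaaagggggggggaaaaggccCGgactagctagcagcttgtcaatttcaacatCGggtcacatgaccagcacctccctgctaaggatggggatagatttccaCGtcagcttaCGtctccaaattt
HOXC4 and HOXC5: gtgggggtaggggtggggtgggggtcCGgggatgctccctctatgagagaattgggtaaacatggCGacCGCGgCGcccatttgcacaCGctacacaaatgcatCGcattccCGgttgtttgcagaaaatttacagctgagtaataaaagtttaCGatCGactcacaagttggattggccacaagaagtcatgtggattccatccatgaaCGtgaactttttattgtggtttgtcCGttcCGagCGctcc
RefSeq's table held 20 of the 39 members, 18 of them with 1 window. The HOXD8 window held 28 CG pairs and the HOXD1 window 31, against 4 in the HOXD4 window, 11 in the HOXA11 window and 14 in the shared HOXC4 and HOXC5 window. Thus the CG-rich HOXD8 window and the CG-poor HOXD4 window belonged to genes that were both silent in HCC15, while the CG-rich HOXD1 window belonged to a gene read in every library. Over the 26 distinct HOX windows, 7 of which belong to HOXA3, the median was 19.5 CG pairs (0 to 40), against 11 over all 34943 windows in the table. The letters TGATNNAT, a core that PBX and HOX proteins can bind together, occurred on either strand in 3 of the 26 HOX windows and in 6.49% of all windows. TATAAA occurred in 5 HOX windows and in 10.8% of all windows, and GGCGGG, the core of an SP1 site, in 10 HOX windows and in 42.4% of all windows. TATAAA and GGCGGG do not overlap TGATNNAT in their letters, and none of these matches shows binding.

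Library totals ran from 25546400 to 28987900 reads, and 14481 genes had enough reads to test (at least 10 in at least 2 libraries). Of the 39 members, 33 passed this filter. HOXA7, HOXB1, HOXC12, HOXD10, HOXD11 and HOXD12 did not. LGR6 itself had 39 reads with siRNA 2, 77 with siRNA 4 and 257 with the control siRNA in HCC15, and 0, 0 and 5 reads in A427, in the same order. LGR6 RNA was thus lower with both siRNAs in HCC15, while A427 held almost none with any siRNA. Epithelial markers ran from 2727 to 5450 CPM (reads scaled to TMM library size, summed over 5 genes) in HCC15 and from 697 to 890 CPM in A427, led by keratins in HCC15. Of the 5, 4 were higher in HCC15 and EPCAM was lower, at 22.6 to 39.3 CPM in HCC15 and 294 to 335 CPM in A427 (-3.39, adjusted p = 1.79e-07, edgeR). Of 4 mesenchymal markers 3 were tested, and 2 of these were lower in HCC15. VIM was at 1355 to 1536 CPM in HCC15 and 4013 to 5175 CPM in A427. PDGFRB did not pass, at 0.156 to 1.25 CPM in HCC15 and 0.381 to 0.548 CPM in A427. COL1A2 had at most 3 reads in any library. The lung lineage markers NKX2-1 and SFTPB were at 0 reads in HCC15, with at most 3 reads of NKX2-1 and none of SFTPB in A427, so these markers of lung epithelium were at or near 0 in both lines. The blood marker PTPRC had 0 reads in HCC15 and 72 to 106 reads in A427. In such bulk libraries, fewer cells with a gene on and less RNA per cell cannot be told apart.

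Both lines read a similar number of HOX genes at a similar summed level, but from different sets. The summed level of all members was 305 to 328 TPM (a level corrected for gene length and library size) in HCC15 and 302 to 378 TPM in A427. A median of at least 1 TPM was reached by 25 members in HCC15 and by 26 in A427. Of these, 19 reached it in both lines, 6 in HCC15 alone, 7 in A427 alone, and 7 reached it in neither. Values of every library are shown in the plot of levels.

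**Figure D1:**
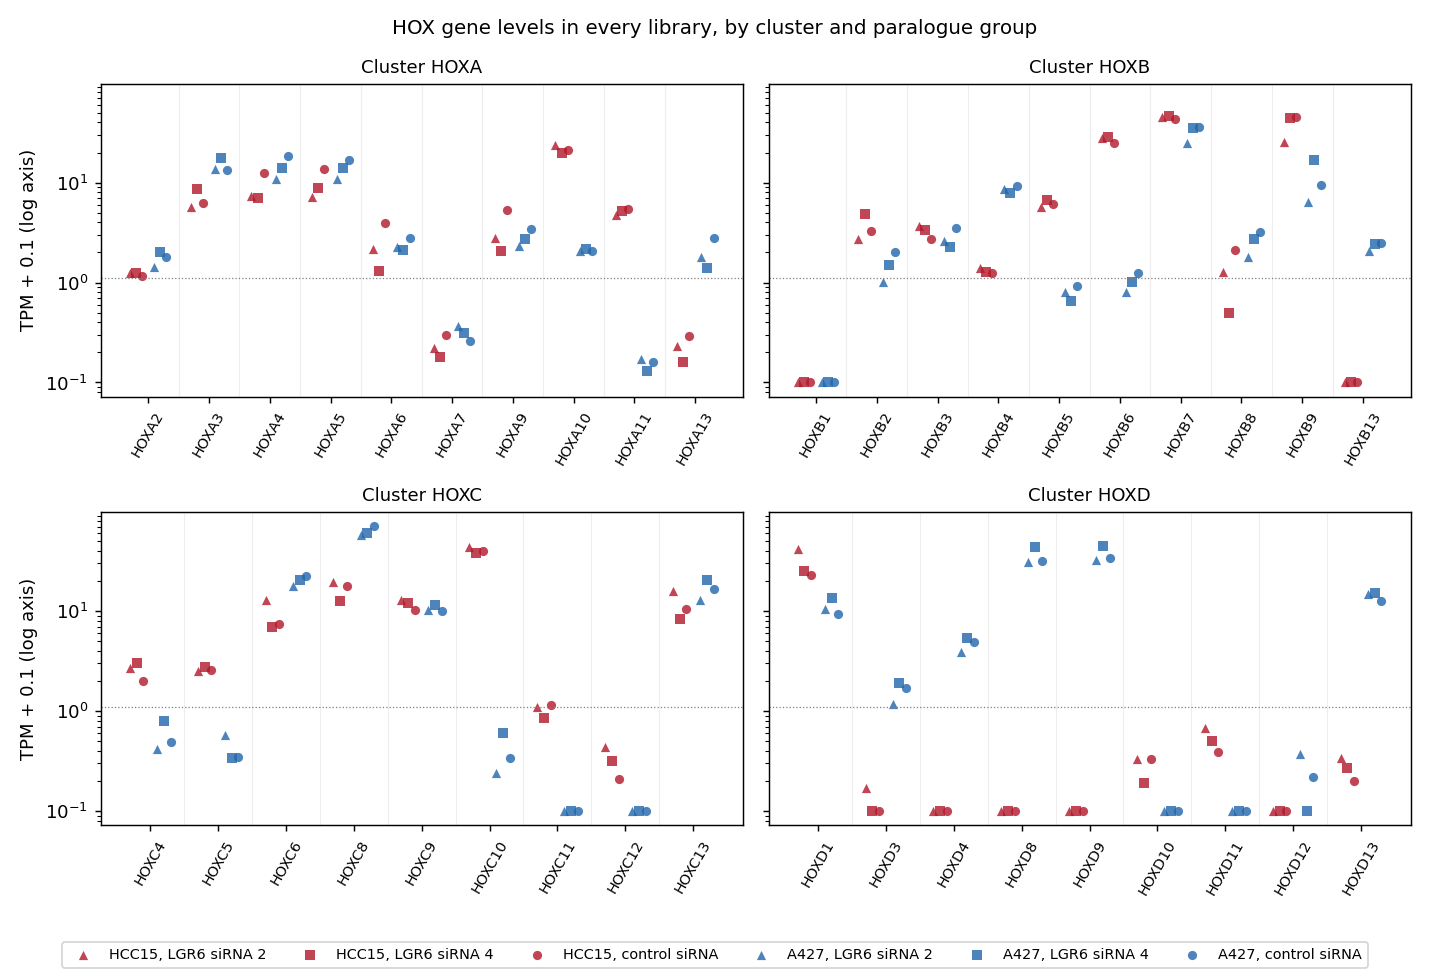
HOX levels in TPM plus 0.1 on a log axis, 1 point per library (red HCC15, blue A427; triangle LGR6 siRNA 2, square LGR6 siRNA 4, circle control siRNA), with genes in paralogue order in each cluster and a dotted line at 1 TPM. HOXD3, HOXD4, HOXD8, HOXD9 and HOXD13 stand above 1 TPM in A427 alone, and HOXA11 and HOXC10 do so in HCC15 alone.

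The clusters were used unequally. In HOXA, 9 of 11 members reached a median of 1 TPM in each line, led by HOXA10 (21.4 TPM) in HCC15. In HOXB, 8 of 10 members reached it in HCC15 and 7 in A427, and HOXB7 led both lines with medians of 44.8 TPM in HCC15 and 35.4 TPM in A427. In HOXC, 7 of 9 members reached it in HCC15, led by HOXC10 (40.4 TPM), and 4 in A427, led by HOXC8 (60.1 TPM). In HOXD, HOXD1 was the only one of 9 members to reach it in HCC15 (25.1 TPM), against 6 members in A427, led by HOXD9 (34.1 TPM). The summed HOXD level was 42.7, 25.8 and 23.5 TPM in HCC15 (siRNA 2, siRNA 4, control) and 93.7, 124 and 94.3 TPM in A427, and those ranges did not overlap. The summed HOXB level did not overlap either and was higher in HCC15, at 112 to 136 TPM against 48.15 to 70.05 TPM in A427. The summed HOXA level, by contrast, overlapped: 59.3 to 81.0 TPM in HCC15 and 61.7 to 82.6 TPM in A427.

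HCC15 differed from A427 in most HOX genes. In edgeR's quasi-likelihood test with Benjamini-Hochberg adjustment over all genes, 27 of the 33 tested members passed an adjusted p under 0.05, 12 higher and 15 lower in HCC15. Over all genes 76.5% passed (37.2% higher and 39.3% lower in HCC15), so the share among HOX genes is near that of genes at large. The 3 libraries of each line did not overlap for 25 of the 33 members, against 68.1% of all genes. The sizes of the differences, the direction within each paralogue group and the members at 0 are therefore what is described here.

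The posterior groups 10 and 11 were higher in HCC15: of their members, HOXA10 was the only one to reach 1 TPM in A427. HOXC10, a gene of hindlimb and lumbar patterning, had 44.2, 38.1 and 40.4 TPM in HCC15 (siRNA 2, siRNA 4, control) and 0.14, 0.51 and 0.24 TPM in A427. It was higher in HCC15 by a log2 fold change of 7.16 ± 0.26 (SE, adjusted p = 8.27e-08, edgeR). HOXA11, known for its roles in limb, kidney and uterus, had 4.60, 5.14 and 5.40 TPM in HCC15 and 0.07, 0.03 and 0.06 TPM in A427 (6.62 ± 0.34, adjusted p = 1.92e-07, edgeR). HOXA10, a uterine and blood cell regulator, had 23.7, 19.7 and 21.4 TPM in HCC15 and 1.95, 2.07 and 1.98 TPM in A427 (3.54 ± 0.16, adjusted p = 2.44e-07, edgeR). Every HCC15 library of these 3 genes stood above every A427 library. HOXC11 had 70 reads over the HCC15 libraries and 0 over the A427 libraries, which makes it at least 24.1-fold higher in HCC15 against a floor of 3 reads over the 3 libraries of a line. The same floor gives at least 4.13-fold for HOXD10 (12 reads in HCC15, 0 in A427), 7.56-fold for HOXD11 (22 and 0) and 2.06-fold for HOXC12 (6 and 0). Those last 3 members had too few reads for the main test. Such bounds allow for counting error in the line at 0 reads but not in the line with reads. They can thus be too high where few reads were seen, as for HOXC12. The intervals below cover counting error only. Summed over its members, group 10 had a median of 61.9 TPM in HCC15 and 2.22 TPM in A427, and group 11 had 6.29 TPM in HCC15 and 0.06 TPM in A427.

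At the posterior end, group 13 ran the other way. HOXD13, which shapes digits and the genital tract, had 0.24, 0.17 and 0.10 TPM in HCC15 and 14.7, 15.1 and 12.5 TPM in A427 (log2 fold change -6.24 ± 0.26, adjusted p = 1.85e-07, edgeR). HOXA13, its partner in limb and urogenital development, had 0.06 to 0.19 TPM in HCC15 and 1.3 to 2.67 TPM in A427 (-3.78 ± 0.34, adjusted p = 1.43e-05, edgeR). HOXB13, a prostate and hindgut gene, had 0 reads in HCC15 and 252 in A427, at least 81.4-fold lower in HCC15. HOXC13, which acts in hair and nail, was the member of this group that did not pass: it had 8.17 to 15.8 TPM in HCC15 and 12.8 to 20.6 TPM in A427 (-0.47 ± 0.25, adjusted p = 0.119, edgeR). Without the siRNA 2 library of HCC15 or of A427 it passed (-0.87, adjusted p = 0.00440 in each). These are 1 check, since the siRNA 2 library that remains is then fitted exactly and the lines are compared on the others.

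The HOXD cluster was split in HCC15 between HOXD1 and the rest. HOXD8 and HOXD9, neighbours in the middle of the cluster, had 2415 and 2477 reads over the A427 libraries and 0 in HCC15, at least 780-fold lower for HOXD8 and at least 800-fold lower for HOXD9. Their levels in A427 moved closely together, at 31.2, 43.9 and 31.9 TPM for HOXD8 and 32.2, 44.5 and 34.1 TPM for HOXD9 (siRNA 2, siRNA 4, control). HOXD4 had 0 reads in HCC15 and 204 in A427, at least 65.9-fold lower. HOXD3 had 2 reads in HCC15 and 127 in A427, a ratio of 0.0162 (95% exact counting interval 0.00195 to 0.0599). HOXD1, the most anterior gene of the cluster, was the reverse: 41.5, 25.1 and 22.9 TPM in HCC15 and 10.5, 13.4 and 9.16 TPM in A427, higher in HCC15 by 1.5 ± 0.19 on the log2 scale (adjusted p = 9.44e-05, edgeR). HOXD12 had 0 reads in HCC15 and 3 in A427, no more than the floor. Thus 5 of the 6 tested HOXD members were lower in HCC15 and 1 was higher, while the few reads of HOXD10 and HOXD11 were all from HCC15.

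**Figure D2:**
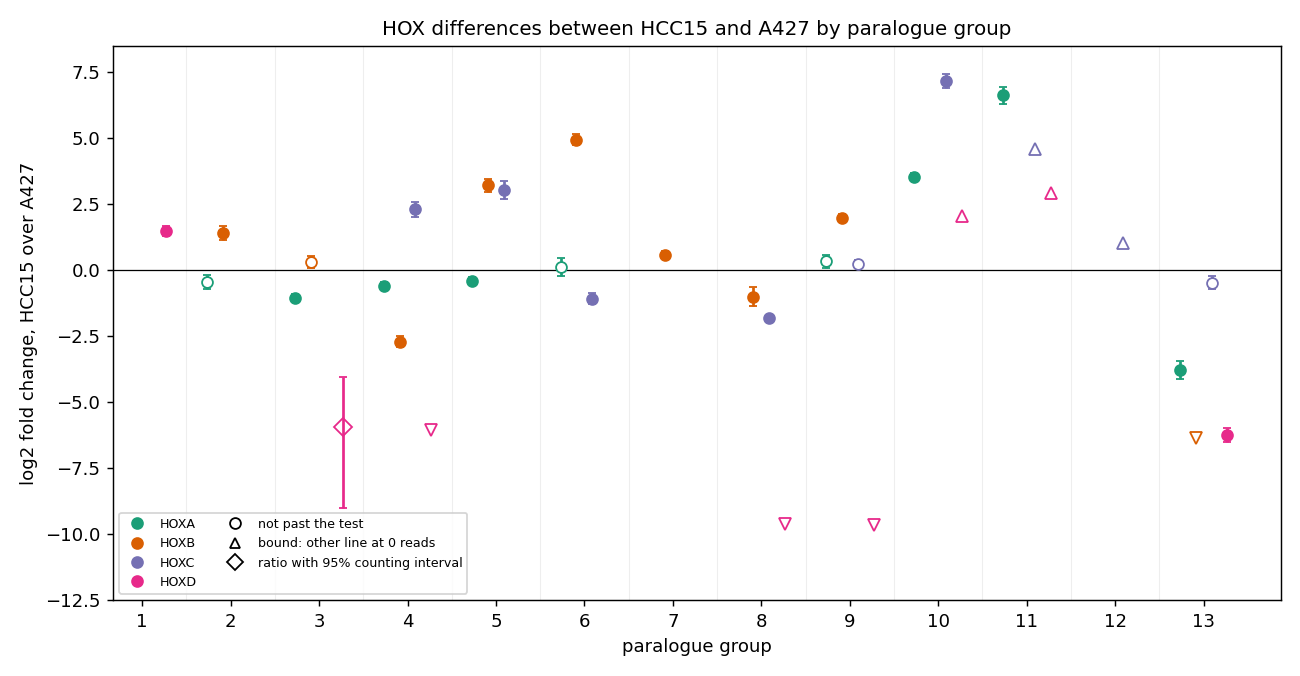
Log2 fold change of HCC15 over A427 by paralogue group, coloured by cluster. Filled circles passed the test (adjusted p under 0.05) and open circles did not, bars are SE, triangles are bounds against a floor of 3 reads where the other line had none, and the diamond is HOXD3 with its counting interval. Groups 10 and 11 lie above 0 for every plotted member, and groups 8 and 13 lie below 0.

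In the HOXB cluster 5 of 9 tested members were higher in HCC15, 3 lower and 1 did not pass. HOXB6 had 28.0, 28.7 and 24.9 TPM in HCC15 and 0.71, 0.92 and 1.15 TPM in A427 (4.95 ± 0.21, adjusted p = 2.07e-07, edgeR). Its neighbour HOXB5, which acts in lung branching and gut innervation in mice, had 5.54, 6.68 and 6.04 TPM in HCC15 and 0.70, 0.56 and 0.83 TPM in A427 (3.22 ± 0.26, adjusted p = 6.38e-06, edgeR). HOXB4, known for expanding blood stem cells, lies next to HOXB5 and ran the other way, with 1.31, 1.18 and 1.16 TPM in HCC15 and 8.62, 7.81 and 9.18 TPM in A427 (-2.71 ± 0.20, adjusted p = 4.14e-06, edgeR). None of these 3 genes overlapped between the lines. HOXB9 was higher in HCC15 by 1.98, HOXB2 by 1.41 and HOXB7 by 0.60 on the log2 scale. HOXB8 was lower (-0.99, adjusted p = 0.0338, edgeR), but its libraries overlapped. It did not pass without the siRNA 4 library of HCC15 (-0.49, adjusted p = 0.159) or of A427 (-0.53, adjusted p = 0.136), which are 1 check. Nor did it pass by DESeq2 (adjusted p = 0.0910) or in the fit of line alone (-0.98, adjusted p = 0.113). HOXB3 did not pass (0.33 ± 0.23). It did pass without the control of HCC15 (0.68, adjusted p = 0.0398) or of A427 (0.68, adjusted p = 0.0410), which are again 1 check. HOXB1, a hindbrain gene, had no read in any library.

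In the HOXC cluster HOXC8, a thoracic patterning gene, was the most abundant member of A427 and was lower in HCC15: 19.6, 12.6 and 17.9 TPM in HCC15 and 57.3, 60.1 and 70.5 TPM in A427 (-1.83 ± 0.14, adjusted p = 4.26e-06, edgeR). HOXC9, its neighbour, did not pass, at 10.1 to 12.7 TPM in HCC15 and 9.85 to 11.3 TPM in A427 (0.24 ± 0.15, adjusted p = 0.172, edgeR). HOXC4 was higher in HCC15 by 2.31 and HOXC5 by 3.05, and HOXC6 was lower by -1.08 on the log2 scale, each past the test. These 3 genes were the only members with expected counts that were not whole, and RefSeq gives them 1 shared gene start. Reads can therefore be split among them by the estimate, and their values are uncertain. With those 3 set aside, the HOXC differences were 2 genes higher in HCC15 (HOXC10 and HOXC11) and 1 lower (HOXC8).

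In the HOXA cluster 2 of 10 tested members were higher in HCC15, 5 lower and 3 did not pass. HOXA3, which acts in thymus and parathyroid formation in mice, had 5.63, 8.48 and 6.20 TPM in HCC15 and 13.7, 17.5 and 13.2 TPM in A427, with no overlap (-1.03 ± 0.14, adjusted p = 1.48e-04, edgeR). HOXA4 (-0.61, adjusted p = 0.00633) and HOXA5 (-0.40, adjusted p = 0.0410) passed with overlapping libraries. The HOXA5 call was lost without any 1 library (adjusted p 0.0817 to 0.153) and by DESeq2 (adjusted p = 0.115). The HOXA4 call was lost in a fit of line alone, with no siRNA term (adjusted p = 0.121), as was that of HOXA5 (0.302). HOXA2, HOXA6 and HOXA9 did not pass (-0.45, 0.12 and 0.34 on the log2 scale), and HOXA7 had 10 reads in HCC15 and 15 in A427.

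Across the clusters, paralogues went the same way in some groups and apart in others. In group 8 the 3 tested members (HOXB8, HOXC8, HOXD8) were all lower in HCC15, with a summed median of 19.9 TPM against 105 TPM in A427. Of these, HOXB8 overlapped between the lines and lost its call in several fits. In group 4, HOXA4, HOXB4 and HOXD4 were lower and HOXC4 was higher. The HOXC4 value is uncertain, as its reads can be split with its neighbours. Groups 5, 6 and 9 each held members that passed in opposite directions, such as HOXB9 (higher) and HOXD9 (lower). In group 5 the only lower member was HOXA5, whose call was lost by DESeq2 and whenever a library was left out. In group 6 the only lower member was HOXC6, whose value is uncertain for the same reason as that of HOXC4. The summed level of group 9 was 58.5 TPM in HCC15 and 56.7 TPM in A427, made mostly of HOXB9 in HCC15 and of HOXD9 in A427.

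Noncoding genes of the clusters were set beside their coding neighbours. Of 24 listed long noncoding or read-through genes, 12 were in the tables and 7 were tested, of which 4 were higher and 3 lower in HCC15, where 76.5% of all genes passed. HOTAIR, transcribed in the HOXC cluster between HOXC11 and HOXC12, had 33, 7 and 23 reads in HCC15 and 0 in A427, which follows the pattern of HOXC11. HOXD-AS2, near HOXD8, had 0 reads in HCC15 and 49 to 81 in A427, like HOXD8 itself. HOXD-AS1, the antisense gene by HOXD1, had 2092, 2969 and 2925 reads in HCC15 and 1305, 2099 and 1762 reads in A427 (0.68 ± 0.11, adjusted p = 3.93e-04, edgeR), higher in HCC15 as HOXD1 was. HOXA11-AS was higher in HCC15 (2.41), as HOXA11 was. Others did not follow a neighbour. HOXC-AS5, by HOXC13, was higher (1.16), while HOXC13 did not pass. HOXA-AS4, by HOXA10, was lower, while HOXA10 was 11.6-fold higher in HCC15. HOTAIRM1, in the HOXA cluster, was lower (-0.88), and HOXA-AS4 (-1.0) was lower too, though HOXA-AS4 lost its call by DESeq2 (adjusted p = 0.0572) and without either control or either siRNA 4 library (adjusted p 0.0640 to 0.0752). No source used here says whether counting used strand, so reads of an antisense gene and of its partner cannot be told apart. HOTTIP had 0 reads in HCC15 and 2 to 12 in A427. HOXA10-HOXA9, a read-through row, had no read, and the 6 listed microRNA rows of the clusters (such as MIR10A) had none either.

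Lists of known regulators of HOX genes held members that passed between the lines, where 76.5% of all genes did (37.2% higher and 39.3% lower), so these counts set no list apart. Of 8 tested TALE cofactors 4 were higher and 3 lower in HCC15: MEIS2 (2.98) was among the higher, and MEIS3 (-4.28) and MEIS1 (-3.43) among the lower. Of 12 Polycomb repressive complex 2 genes, 4 were higher (PHF19 by 2.31) and 5 lower (EZH1 by -2.29, SUZ12 by -1.37), although SUZ12 did not pass without the siRNA term (adjusted p = 0.0775). Of 18 Polycomb repressive complex 1 genes, 5 were higher and 11 lower (CBX2 by -2.62). Of 13 genes of MLL complexes and related histone enzymes, 4 were higher (WDR5 by 1.71) and 3 lower (KDM6B, a demethylase of the Polycomb mark, by -2.13). Of 11 retinoic acid pathway genes, 5 were higher (CRABP2, a carrier, by 6.86) and 6 lower (ALDH1A1, a synthesis enzyme, by -2.77), and the receptor gene RARB had 0 reads in HCC15 and 315 to 478 in A427. Both tested ParaHox genes were lower, CDX2 at 4 to 5 reads in HCC15 against 75 to 133 in A427, and PDX1 at 0 against 10 to 21. Of 8 genes of chromatin architecture, 4 were higher and 2 lower, and of 10 genes that flank the clusters 4 were higher (SKAP1, beside HOXB1, at 418 to 645 reads in HCC15 and 1 or 2 in A427) and 5 lower.

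With LGR6 siRNA 2, 3 of the 33 tested HOX genes (HOXA4, HOXA5 and HOXB9) were lower than with control siRNA across both lines, and none was higher. Over all genes 7.62% passed, 2.96% higher and 4.66% lower. HOXA4 had 5.36 CPM with siRNA 2 and 9.73 CPM with control siRNA in HCC15, and 7.70 CPM with siRNA 2 and 13.6 CPM with control in A427 (-0.84 ± 0.19, adjusted p = 0.0340, edgeR). HOXA5, a regulator of airway branching, had 4.94 CPM with siRNA 2 and 10.3 CPM with control in HCC15, and 7.40 CPM with siRNA 2 and 11.7 CPM with control in A427 (-0.85 ± 0.19, adjusted p = 0.0341, edgeR). HOXB9, an effector of Wnt signalling in lung cancer cells, had 30.4 CPM with siRNA 2 and 58.8 CPM with control in HCC15, and 7.47 CPM with siRNA 2 and 11.4 CPM with control in A427 (-0.80 ± 0.20, adjusted p = 0.0474, edgeR). Each of the 3 genes was lower in both lines, which makes 2 of 2 pairs. The test itself favours genes on which the lines agree, so this adds no separate support. All 3 calls were lost when a control or siRNA 2 library of either line was left out, and calls over all genes fell too. Each such fit leaves a single library with that siRNA, so sizes alone are given. HOXA4 was at -0.74 and -0.94 without the HCC15 and A427 control, and at -0.89 and -0.77 without the HCC15 and A427 siRNA 2 library. In the same order HOXA5 was at -0.69, -1.03, -0.73 and -0.98, and HOXB9 at -0.47, -1.05, -0.84 and -0.78 on the log2 scale. By limma on log2(TPM + 1) and log2(TPM + 0.1), HOXA4 (adjusted p = 0.0561 and 0.0692) and HOXB9 (0.0995 and 0.115) did not pass, and HOXA5 did not pass on log2(TPM + 0.1) (0.0543). HOXB9 also missed the threshold with another scaling (adjusted p = 0.050) and without a filter on low counts (0.0568).

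With LGR6 siRNA 4, 1 of the 33 members passed, and it was lower than with control siRNA, where 12.5% of all genes passed (4.58% higher and 7.95% lower). HOXA4 had 5.77 CPM with siRNA 4 and 9.73 CPM with control in HCC15, and 10.3 CPM with siRNA 4 and 13.6 CPM with control in A427, and did not pass (-0.56, adjusted p = 0.0868, edgeR). HOXA5 had 6.90 CPM with siRNA 4 and 10.3 CPM with control in HCC15, and 9.64 CPM with siRNA 4 and 11.7 CPM with control in A427, and did not pass either (-0.42, adjusted p = 0.175, edgeR). The call of the 1 member that passed was lost without the HCC15 control, the A427 control or the HCC15 siRNA 4 library. Calls over all genes fell in these fits too, as each leaves a single library with that siRNA. Both siRNAs are set against the same 2 control libraries, so their responses are not independent.

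**Figure D3:**
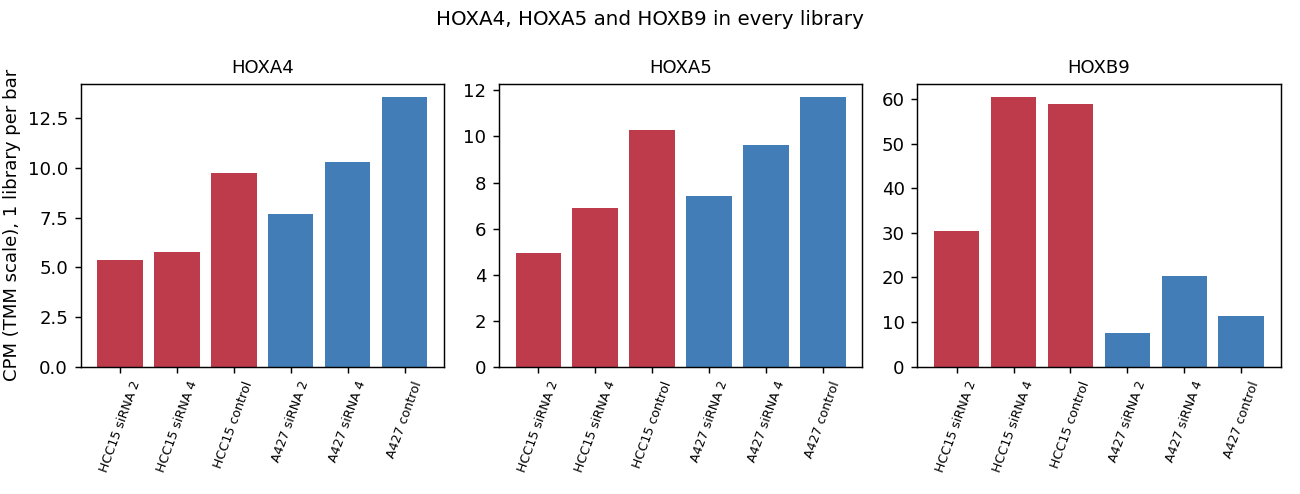
CPM in each library of HOXA4, HOXA5 and HOXB9, 1 bar per library (red HCC15, blue A427), with siRNA 2, siRNA 4 and control from left to right in each line. HOXA4 and HOXA5 are below the control of their line in all 4 LGR6 siRNA libraries, while HOXB9 is below it with siRNA 2 only.

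The siRNAs differed from each other in HOXB9. It was higher with siRNA 4 than with siRNA 2 by 1.21 ± 0.20 on the log2 scale (adjusted p = 0.00651, edgeR), the only one of 33 members to pass, where 16.5% of all genes did (7.7% higher and 8.84% lower). HOXB9 had 60.4 CPM with siRNA 4 and 30.4 CPM with siRNA 2 in HCC15, and 20.3 CPM with siRNA 4 and 7.47 CPM with siRNA 2 in A427. The siRNA 4 libraries stood at 103% of the control in HCC15 and at 179% in A427. The call was lost without the HCC15 siRNA 2 library (1.25, adjusted p = 0.0616). HOXA3 came nearest among the others (0.57, adjusted p = 0.0520) and passed where genes had to reach a mean of 1 CPM (0.56, adjusted p = 0.0494). HOXD-AS1 was also higher with siRNA 4 than with siRNA 2 (0.64, adjusted p = 0.0152, edgeR), a call lost without the HCC15 siRNA 2 (0.113), HCC15 siRNA 4 (0.0629) or A427 siRNA 4 (0.0608) library.

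Taking both LGR6 siRNAs against control across the lines, no member passed (5 of 33 at an unadjusted p under 0.05), by edgeR, by DESeq2 or by limma, and 0.0% of all genes passed by edgeR (1512 at an unadjusted p under 0.05), against 387 genes by DESeq2. With the replicate block (siRNA number as a term) 3 members passed, all lower, among them HOXA4 (-0.70, adjusted p = 0.0323) and HOXA5 (-0.64, adjusted p = 0.0458), where 8.96% of all genes passed (5.65% lower). Without the block the lowest adjusted p among members was 0.324.

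The 4 LGR6 siRNA libraries were all below the control of their own line for 7 of 33 members, against 16.4% of all genes, and all above it for 2, against 16.2% of all genes. Of the 7, 6 belong to the 10 tested HOXA members (HOXA4, HOXA5, HOXA6, HOXA9 and HOXA13 among them), and HOXB8 to HOXB. HOXA9, a gene of blood progenitors, stood at 47.8% and 39.3% of its control in HCC15 (siRNA 2, siRNA 4) and at 65.3% and 79.1% in A427. The counting interval of the A427 siRNA 4 value was 56.5% to 110%. HOXA6 stood at 50.6% and 33.1% in HCC15 and at 77.5% and 73.7% in A427, on 10 to 31 reads per library. Its A427 counting intervals were 38.3% to 153% and 36.4% to 146%, so its direction there was not detectable at this depth. HOXB8 stood at 54.5% and 21.0% in HCC15 and at 53.3% and 85% in A427, where the siRNA 4 counting interval was 58.9% to 122%. None of HOXA9, HOXA6 and HOXB8 passed in the mean of both siRNAs (log2 fold changes -0.85, -0.83 and -0.90, adjusted p at least 0.354). HOXA10, the most abundant HOXA gene of HCC15, kept near its control in all 4 libraries (log2 ratios -0.06 to 0.08), and HOXA2 and HOXA3 lay on both sides. The median log2 fold change of the 10 tested HOXA members was -0.60 with siRNA 2 and -0.49 with siRNA 4, against -0.01 over all tested genes with each, and against medians of -0.29 and 0.07 in HOXB, 0.05 and 0.07 in HOXC, and -0.10 and 0.33 in HOXD. The 2 members above their control throughout were HOXD1 (111.9% to 169.2%) and HOXD13 (115% and 121% in A427), neither of which passed (0.44 and 0.33, adjusted p at least 0.570). In HCC15, HOXD13 had 7 and 5 reads with the LGR6 siRNAs and 3 with control, with counting intervals of 49.1% to 1289% and 33.2% to 1100% of control, so its direction there was not detectable at this depth.

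**Figure D4:**
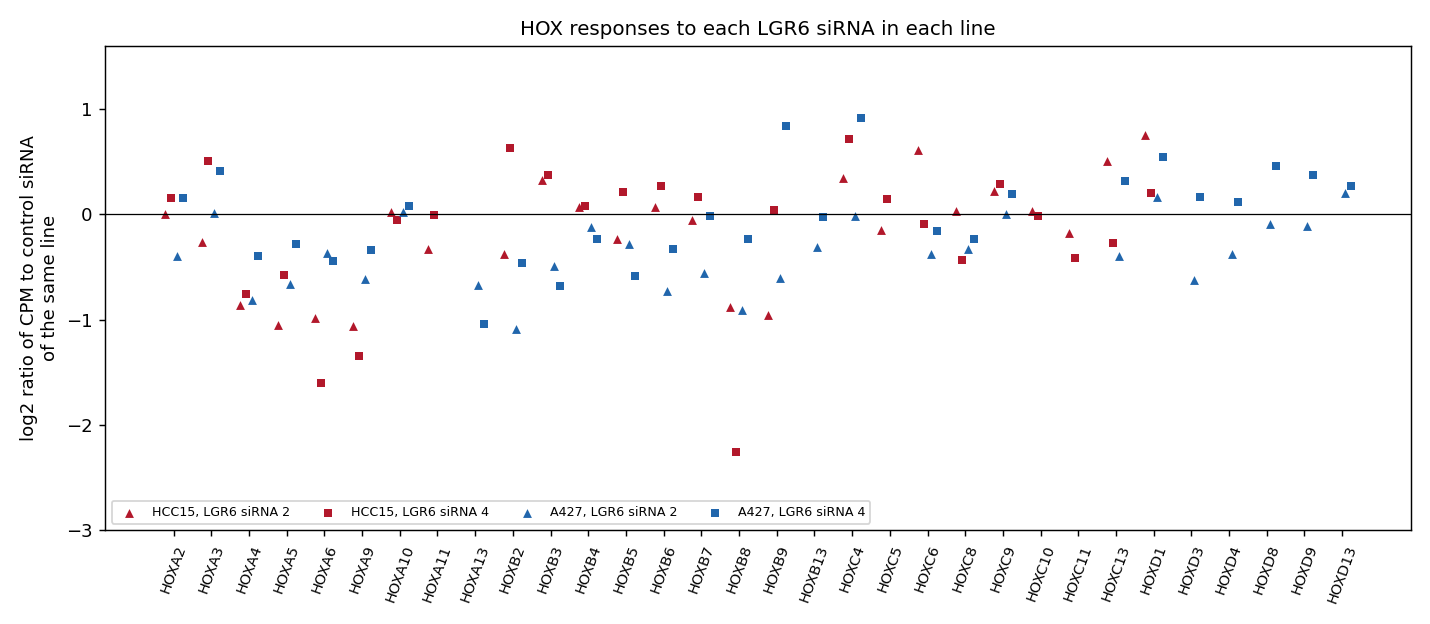
Log2 ratio of CPM in each LGR6 siRNA library to the control siRNA library of the same line, for tested members with at least 30 reads over the 3 libraries of that line (red HCC15, blue A427; triangle siRNA 2, square siRNA 4). HOXA4, HOXA5, HOXA6 and HOXA9 lie below 0 in all 4 libraries, and HOXA10 lies near 0.

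The lines were also set against each other in their response. In edgeR's interaction term 0 of 33 members passed (0 at an unadjusted p under 0.05), as by DESeq2 and by limma, but 0.0% of all genes passed as well (78 at an unadjusted p under 0.05), so that with 2 residual degrees of freedom this does not show that the lines responded alike. HOXB3 lay on opposite sides of its controls: it stood at 125% and 130% of control in HCC15 (siRNA 2, siRNA 4; 95% counting intervals 98.6% to 159% and 102% to 166%) and at 71.1% and 62.5% in A427 (55.2% to 91.3% and 48.2% to 80.7%). Its difference between the responses was 0.93 ± 0.47 on the log2 scale and did not pass (unadjusted p = 0.0982, interaction term of the edgeR fit across all genes). For HOXA5 the difference between the responses was -0.34 ± 0.53 and for HOXA9 it was -0.73 ± 0.53 on the log2 scale. LGR6 had 0 to 5 reads in A427, where HOXA4 and HOXA5 were lower with each LGR6 siRNA than with control, though neither gene passed with siRNA 4. Whether these HOXA4 and HOXA5 levels depended on LGR6 was not tested.

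Among regulators of HOX genes, SUZ12, a core subunit of Polycomb repressive complex 2, fell with both siRNAs. It had 32.6, 32.6 and 111 CPM in HCC15 and 109, 88.7 and 212 CPM in A427 (siRNA 2, siRNA 4, control), a log2 fold change of -1.36 ± 0.18 with siRNA 2 (adjusted p = 0.00722, edgeR) and of -1.52 ± 0.18 with siRNA 4 (adjusted p = 0.00241, edgeR). The siRNA 2 call was lost without the HCC15 control (-1.03, adjusted p = 0.107) or the HCC15 siRNA 2 library (-1.09, 0.0505). Over all genes 7.62% passed with siRNA 2 and 12.5% with siRNA 4, and the list counts that follow are read against those shares. SUZ12 was the 1 gene of 12 in its list to pass with siRNA 2. With siRNA 4, 2 were higher, JARID2 (0.92) among them, and 2 lower. Of the MLL and related genes 2 of 13 rose with siRNA 2, and 4 rose and 1 fell with siRNA 4, KDM6B (1.06) the strongest of these. Of the 18 Polycomb repressive complex 1 genes 1 rose and 1 fell with siRNA 2, and 4 rose with siRNA 4. Of the 8 TALE cofactors none passed with siRNA 2 and 1 fell with siRNA 4. Of the 11 retinoic acid genes 1, CYP26B1, which degrades retinoic acid, fell with siRNA 2 (-2.01), and 1 fell with siRNA 4. No ParaHox gene passed with either siRNA, nor any architecture or flanking gene with siRNA 2, while 2 of each of the last 2 lists fell with siRNA 4. The calls named here for JARID2 (adjusted p 0.0569 without the HCC15 and 0.0864 without the A427 control) and CYP26B1 (0.0891 and 0.243) were lost without either control, and that for KDM6B without the HCC15 control (0.0646). Whether any of these changes bears on the HOX values was not tested.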

How the data were processed

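Column-purified, DNase-treated RNA went into libraries made, per the labels' protocols, with the KAPA mRNA HyperPrep kit. The submitters' processing notes name FastQC 0.11.1, STAR 2.5.3a, RSEM 1.3.3 and the build hg19. For the annotation and strand setting, nothing is given in the sources used here. In the tables, the authors deposited expected counts, estimated per gene by RSEM, and TPM. Of the expected counts, 5.75% to 6.29% per library were not whole, and they were rounded before testing.

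Members and lists were chosen with earlier results of these data known. Some members and list genes are not reported here. Named genes were the other members, LGR6, the noncoding rows of the clusters and, from each regulator list, up to 4 genes past the test (smallest adjusted p first).

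Tests used edgeR 4.0.16 in R 4.3.3 (TMM, quasi-likelihood, Benjamini-Hochberg, adjusted p under 0.05) on genes reaching 10 reads in 2 or more of 6 libraries. The fit was line plus siRNA (2 residual degrees of freedom) for the lines and each siRNA, line plus arm (3) for both siRNAs, and line by arm (2) for the difference in response. CPM are on the TMM scale. Ratios, bounds and the 95% exact intervals of ratios use pooled reads, and bounds have no interval. The test was tried on simulated counts. Per the labels, equal siRNA numbers are 1 reagent used in each line, and they form the replicate block. Alternatives were DESeq2 1.42.0, RLE scaling, other filters, limma 3.58.1 on log2(TPM + 1) and log2(TPM + 0.1), leaving out each library, and fits with or without the block.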

Additional observations from a re-analysis of the deposited data

How the results depend on the processing

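Calls between the lines changed little: 24 to 28 of the HOX members passed under the alternatives, 25 to 27 when a library was left out and 25 by DESeq2. For the lines, leaving out either library of an siRNA is 1 check, as the other is then fitted exactly, so these fits are not independent. The count was 24 of 29 with a mean of 1 CPM, 28 of 38 without a filter and 24 of 33 with no replicate block (line alone). Over all genes 10015 of 13096, 11559 of 18093 and 9051 of 14481 passed in the same order. Calls for the siRNAs rested on few libraries: with siRNA 2 the count was 3 of 33, but 1 of 32 with limma on log2(TPM + 1) and 0 of 32 with log2(TPM + 0.1). Over all genes 1104 of 14481, 806 of 13569 and 678 of 13569 passed in the same order. Leaving out a control or siRNA 2 library of either line lost the siRNA 2 calls, while calls over all genes fell too. With siRNA 4 the count was 1, lost without either control or the HCC15 siRNA 4 library. For siRNA 4 against siRNA 2 the count was 1, lost without the HCC15 siRNA 2 library. It was 2 of 29 where a mean of 1 CPM was required, against 2371 of 13096 genes. For both siRNAs it was 0, and 3 with the replicate block, while the block left the difference between the lines in response at 0. HOXA6, never past the test between the lines, was at 0.12, at -0.040 with limma on log2(TPM + 1), at -0.093 on log2(TPM + 0.1), and between -0.24 (without the HCC15 or the A427 control) and 0.36 (without the HCC15 siRNA 4 library) when a library was left out, and the cause was not tested. At a level of 0.5 TPM 26 members were counted in HCC15 and 28 in A427, and at 5 TPM 16 in HCC15 and 15 in A427. The difference in response could not be fitted without either control. Few reads limit HOXA7, HOXC12 and HOXD10 to HOXD12.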
